A study of Mus musculus with 1 sample.

Results

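The genes described here are Spi1, Irf8, Irf4, Id2, Batf3, Zeb2, Zbtb46 and Nfil3, 8 transcription factor genes of monocyte and dendritic cell fate. They were chosen by symbol, and each symbol matched 1 of the 32285 genes in the deposited matrix, so 8 of 32285 genes are described. Their levels and their detection in the same cell were compared among monocyte, conventional dendritic, plasmacytoid-like and neutrophil cells, which were picked out by marker genes other than these 8.

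The data come from 1 library, in which transcripts were counted in single cells from the marrow of femora and tibiae of C57BL/6 mice after a sort for Lineage- cKit+ cells, the immature part of the marrow in which stem cells and the early precursors of each lineage lie. The mice were Brd9fl/fl without Cre, so Brd9 was floxed but not deleted, and they received 3 doses of 20 mg/kg polyinosinic-polycytidylic acid (pIpC), a double-stranded RNA mimic that induces interferon, with cells prepared 8 weeks later. The series text describes primary mice that were first injected 4 weeks after birth, and the study's text gives another age for its primary mice, while the sample's own labels name a CD45.2(+) donor and a CD45.1(+) CD45.2(-) recipient, so neither the age nor whether these cells had been transplanted was settled. How many mice were pooled is not given in the sources used here, and the library of Brd9-deleted cells is not analysed here.

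PU.1, the product of Spi1, opens the myeloid programme in haematopoietic progenitors. IRF8 acts with PU.1 at composite DNA sites and is required for monocytes and for the type of conventional dendritic cell that cross-presents antigen (cDC1), whereas progenitors without it turn to neutrophils. Among dendritic cells, ID2 holds back E proteins such as TCF4, the master factor of plasmacytoid dendritic cells, ZEB2 holds back Id2, NFIL3 acts upstream in cDC1 development by restraining Zeb2, BATF3 keeps Irf8 on in cDC1 precursors, ZBTB46 marks the conventional dendritic lineage, and IRF4 is needed by the second conventional type (cDC2).

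On GRCm38 with GENCODE M21, Spi1 lies at chr2:91082390-91115756 on the plus strand, Irf8 at chr8:120736358-120756694 (plus), Irf4 at chr13:30749226-30766976 (plus), Id2 at chr12:25093799-25097140 (minus), Batf3 at chr1:191097847-191108945 (plus), Zeb2 at chr2:44983632-45117395 (minus), Zbtb46 at chr2:181387762-181459426 (minus) and Nfil3 at chr13:52967209-52981073 (minus). All 8 are protein-coding genes. Irf8 overlaps Gm20388, Zeb2 overlaps Mir5129 and Zbtb46 overlaps Gm22708 on the same strand, so reads of those pairs may not have been told apart in the deposited counts. RefSeq windows of 250 bases before an annotated start (GRCm38.p6) were found for 7 of the 8 genes, all but Spi1. The windows of Irf8, Id2, Batf3 and Zeb2, on which the comparisons of the gates turn, are printed 5′ to 3′, with capitals at matches, on either strand, to GAGGAA (the core bound by PU.1-type Ets factors), CANNTG (the E-box bound by E proteins and ZEB2) and TGANTCA (the AP-1 site).
Irf8, chr8:120736108-120736357, plus strand: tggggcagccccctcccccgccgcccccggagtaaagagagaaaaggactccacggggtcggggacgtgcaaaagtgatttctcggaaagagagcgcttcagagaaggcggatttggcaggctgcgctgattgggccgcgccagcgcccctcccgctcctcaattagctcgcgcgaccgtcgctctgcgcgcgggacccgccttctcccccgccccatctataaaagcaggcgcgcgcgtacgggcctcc
Id2, chr12:25096093-25096342, minus strand: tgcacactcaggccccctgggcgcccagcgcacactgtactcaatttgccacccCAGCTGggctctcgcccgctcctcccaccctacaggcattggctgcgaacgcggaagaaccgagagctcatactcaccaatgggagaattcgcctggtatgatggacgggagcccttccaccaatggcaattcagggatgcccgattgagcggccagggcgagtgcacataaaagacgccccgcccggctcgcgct
Batf3, chr1:191098164-191098413, plus strand: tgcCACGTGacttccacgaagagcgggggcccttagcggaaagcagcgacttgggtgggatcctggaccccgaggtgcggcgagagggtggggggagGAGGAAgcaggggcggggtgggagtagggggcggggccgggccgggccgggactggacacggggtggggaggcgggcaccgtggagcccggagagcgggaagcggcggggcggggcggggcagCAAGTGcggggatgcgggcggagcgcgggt
Zeb2, chr2:45117443-45117692, minus strand: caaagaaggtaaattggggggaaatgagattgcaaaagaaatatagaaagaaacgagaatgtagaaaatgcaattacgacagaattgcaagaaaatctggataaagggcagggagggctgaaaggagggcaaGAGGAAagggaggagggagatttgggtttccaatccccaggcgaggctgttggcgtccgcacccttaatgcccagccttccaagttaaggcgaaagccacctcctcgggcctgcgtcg

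The Irf8 window ends directly before the GENCODE start of the gene and held none of these letters. RefSeq has a further window for Irf8, 2281 bases inside the gene, with 2 E-boxes of which 1 is CAGGTG, and further windows for Zeb2, 4116 to 7118 bases inside the gene, in which GAGGAA and TGANTCA occur. Id2 had 1 E-box, Batf3 had 2 E-boxes and 1 GAGGAA, and the Zeb2 window, which ends 47 bases before the GENCODE start, had 1 GAGGAA. The Id2 and Batf3 windows end 1048 and 567 bases inside the GENCODE genes, because RefSeq places those starts further downstream. Over all 32851 RefSeq windows of this length, 23.3% held GAGGAA, 66.2% held CANNTG and 6.75% held TGANTCA. Searches on both strands for CAGGTG (the form of E-box preferred by ZEB factors, which overlaps CANNTG), GGAA and GAAA 2 bases apart (a composite of an Ets and an interferon factor site), GAAA repeated 2 bases apart (the core of an interferon response element) and TTANGTAA (an NFIL3-type site) found none in the 4 windows printed. These 4 forms occurred in 17.2%, 2.30%, 2.98% and 2.06% of all windows. A match is given only as letters, not as a bound site.

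Of 8817 barcodes, the study's filter on depth, genes and mitochondrial share kept 7645 cells, which had a median of 18696 unique molecular identifiers (UMIs, 1 per captured transcript molecule). To place cells, each was thinned at random to 5000 UMIs, and a cell entered a gate when at least 3 markers of that list, and more than of any other lineage list, had a UMI. The monocyte gate took 1854 cells, the conventional dendritic gate 234, the plasmacytoid-like gate 63 and the neutrophil gate 238, with median depths of 21689, 12020, 14278 and 19439 UMIs. Levels are all UMIs of a gene in a gate per 1000000 UMIs of the gate (CPM). A single library gives no replicates, so differences were not tested. The 95% intervals are exact and cover counting error only, and not the error between mice or between random draws of the thinning. Ranges over 6 such draws are given beside some of the ratios and shares that moved between them.

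The gates were set by these lists, so higher levels of a list in its own gate follow from the gating. A UMI was found of 9 of 9 monocyte, 11 of 11 conventional dendritic and 10 of 10 plasmacytoid markers in their own gates. The monocyte gate also had a UMI of 11 of 11 conventional dendritic and 10 of 10 neutrophil markers. Such counts therefore do not tell the gates apart. Summed levels of the monocyte list were 3148.5 CPM in the monocyte gate, 1623.0 in the conventional dendritic, 863.4 in the plasmacytoid-like and 1074.5 in the neutrophil gate. Ly6c2 alone made up 994.2 CPM of the neutrophil sum, so that sum says little of the other monocyte markers. Ly6c2 was at 1254.8 CPM in the monocyte, 64.4 in the conventional dendritic and 183.3 in the plasmacytoid-like gate. The conventional dendritic list summed to 18092.5 CPM in its own gate and to 104.9, 251.1 and 38.0 CPM in the monocyte, plasmacytoid-like and neutrophil gates. For the plasmacytoid list the sum was 2754.3 CPM in its own gate. It was 248.5, 318.3 and 161.4 CPM in the monocyte, conventional dendritic and neutrophil gates. The neutrophil gate held early cells: 8 of 10 neutrophil markers had a UMI, Ltf and Mmp8, of late granules, were at 0, and the early granule list (Mpo, Elane, Prtn3, Ctsg, Ms4a3) summed to 52060.6 CPM. Doublet calls made up 6.84% of the conventional dendritic gate, against 2.75% of the monocyte, 4.76% of the plasmacytoid-like and 0.840% of the neutrophil gate.

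Irf8 and Spi1, the pair that acts together in myeloid progenitors, differed in how far they separated the gates. Irf8 stood at 706.0 CPM (interval 697.9 to 714.1) in the monocyte gate, 1578.7 (1533.9 to 1624.5) in the conventional dendritic, 1718.3 (1635.7 to 1804.0) in the plasmacytoid-like and 13.6 (10.5 to 17.4) in the neutrophil gate. Both dendritic gates were therefore highest, the monocyte gate lay between, and the neutrophil gate was lowest. Spi1 stood at 268.7 CPM (263.8 to 273.8), 296.8 (277.6 to 317.0), 140.9 (118 to 167) and 230.5 (216.9 to 244.8) in the same order, a range far narrower than that of Irf8, with the plasmacytoid-like gate the lowest of the 4.

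Beyond those 4 gates, Irf8 was at 303.9 CPM in 105 multipotent cells and at 83.0 CPM in 966 cells that carried only the early granule list. It was at 22.5 CPM in the stem gate, 27.4 in the erythroid and 10.2 in the megakaryocyte gate. Spi1 was at 196.5 CPM in the early granule gate and 168.4 CPM in the basophil or mast gate, and lowest in the erythroid gate at 21.6 CPM.

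Id2, Batf3 and Zbtb46, the factors tied to conventional dendritic cells, were each highest of the 4 gates in the conventional dendritic gate. Id2 was at 975.0 CPM there (939.9 to 1011.1), against 12.8 in the monocyte, 20.1 in the plasmacytoid-like and 17.7 in the neutrophil gate. Batf3 was at 164.0 CPM (149.8 to 179.2), against 1.82 in the monocyte gate, 1 UMI in the neutrophil gate and none in the plasmacytoid-like gate, where 3 UMIs would have been 3.18 CPM. Zbtb46 was at 28.5 CPM (22.8 to 35.3), against 1.11 in the monocyte gate, 3 UMIs in the plasmacytoid-like gate and 1 UMI in the neutrophil gate. The monocyte, plasmacytoid-like and neutrophil gates did not separate for Zbtb46, since the intervals of the last 2 both held the monocyte value.

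Zeb2, the repressor that opposes Id2, ran the other way among the dendritic gates. It was at 291.3 CPM in the monocyte gate (286.1 to 296.5) and at the same 291.3 CPM in the plasmacytoid-like gate (257.9 to 327.9), but at 69.4 CPM (60.3 to 79.6) in the conventional dendritic and 79.5 CPM (71.6 to 88.1) in the neutrophil gate. The intervals of the latter pair overlapped. Nfil3, which restrains Zeb2 in cDC1 development, was at 16.3 CPM (15.1 to 17.6) in the monocyte, 16.4 (12.2 to 21.7) in the conventional dendritic, 19.1 (11.3 to 30.1) in the plasmacytoid-like and 4.32 (2.64 to 6.67) in the neutrophil gate. Its first 3 values could not be ordered within their intervals, and the neutrophil value lay below all of them. The conventional dendritic value was uneven within its gate. Of its 49 UMIs, 44 lay in 121 cells with none of Xcr1, Clec9a, Cd209a and Clec10a (26.3 CPM). The 93 cells with Xcr1 or Clec9a only had 5 UMIs (4.61 CPM), and the 16 with Cd209a or Clec10a only had 0.

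Irf4, the cDC2 factor, was nearly absent from the library, with 49 UMIs in 24 of the 7645 cells kept. The conventional dendritic gate had 11 UMIs in 4 cells (3.69 CPM, 1.84 to 6.60), of which 5 came from 1 cell, the monocyte gate had 9 UMIs in 6 cells, the plasmacytoid-like gate 2 UMIs and the neutrophil gate none. A larger share of the Irf4 UMIs, 24 of 49 (49.0%), came from 9 cells that no list placed. Those 9 cells carried 2831.4 CPM of the conventional dendritic list and 596.4 CPM of the B lineage list, against 158.0 and 54.6 CPM in the other 134 unplaced cells.

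**Figure D1:**
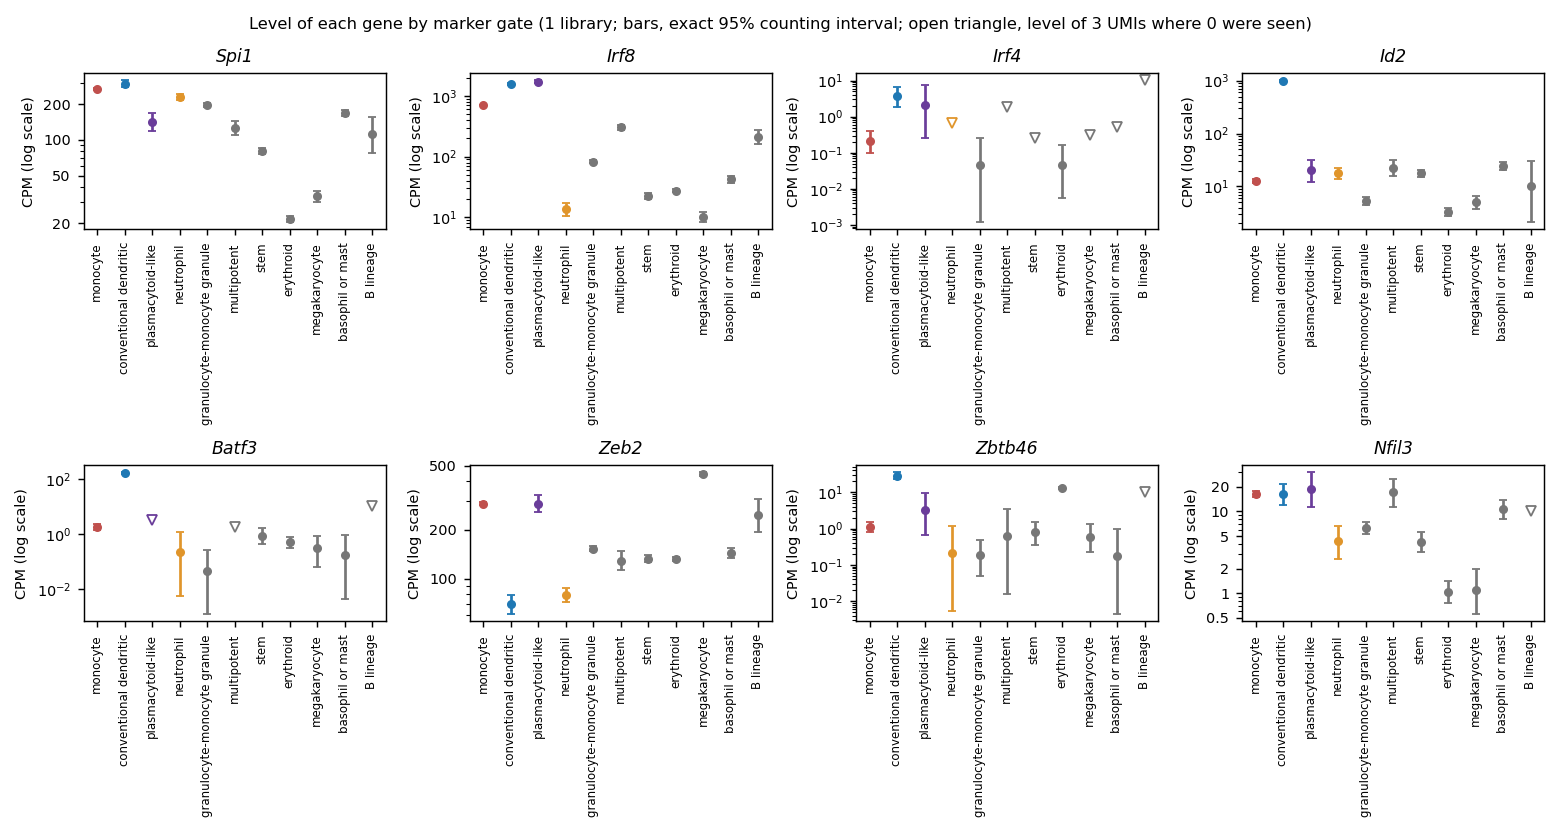
Level of each gene (CPM, log scale) in the gates of at least 20 cells, with exact 95% counting intervals; coloured points are the monocyte, conventional dendritic, plasmacytoid-like and neutrophil gates, grey points the other gates, and open triangles the level of 3 UMIs where none was seen. Irf8 is lowest of the coloured gates in neutrophil cells (13.6 CPM), Id2 and Batf3 are highest in conventional dendritic cells (975.0 and 164.0 CPM), and Zeb2 is higher in the monocyte and plasmacytoid-like gates (both 291.3 CPM) than in the other 2.

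The monocyte against neutrophil comparison addressed which of these factors separate the 2 branches of the granulocyte and monocyte lineage. A gene counted as different when its CPM differed at least 2-fold and it had at least 50 UMIs in both gates together. Of the 6 members with that many UMIs, 4 were higher in the monocyte gate (Irf8, Batf3, Zeb2, Nfil3) and none was lower, while 18.8% of all 11007 genes were higher and 3.05% lower by the same rule. Irf8 was 51.9-fold higher (40.5 to 67.5, and 38.7 to 81.5 over the 6 draws), Zeb2 3.66-fold (3.30 to 4.08, draws 3.66 to 4.50), and Nfil3 3.77-fold (2.42 to 6.21, draws 3.41 to 5.24). The Irf8 ratio was 81.8 without doublet calls and 171.6 when 1 marker more was asked for. Batf3 had 75 UMIs against 1, a ratio of 8.40 with an interval of 1.46 to 336.3 and 4.45 to 11.3 over the draws. Those 75 UMIs lay in 34 of the 1854 monocyte cells. In the 19 cells with a thinned UMI of Batf3, the conventional dendritic list was at 3387.4 CPM, against 84.3 in the others. The call of Batf3 therefore rests on few cells of the gate. When 1 marker more was asked for, the neutrophil gate had no Batf3 UMI and the floor of 3 UMIs bounded the ratio at 1.17, so that the call of Batf3 was lost. Spi1 (ratio 1.17, 1.10 to 1.24) and Id2 (0.722, 0.571 to 0.922) stayed within 2-fold. The Id2 value is the lowest of the 6 draws, which reached 1.05, so no direction is read from it. Zbtb46, with 46 UMIs against 1, was under the minimum, and Irf4 was at 9 UMIs against 0. The median gene was itself higher by 0.35 on the log2 scale in the monocyte gate, and 86.0% of the genes past 2-fold were the higher ones. With scaling by the median of ratios this share was 69.5%, Irf8, Batf3, Zeb2 and Nfil3 were still past 2-fold (41.0, 6.64, 2.89 and 2.98), and Spi1 was on the other side of 1 (0.921).

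For the conventional dendritic gate against the monocyte gate, 4 of the 7 members with enough UMIs were higher and 1 was lower, against 12.2% and 6.17% of 11106 genes. Id2 was 76.3-fold higher (69.5 to 83.9), Batf3 90.4-fold (70.7 to 116.8), Zbtb46 25.6-fold (17.7 to 37.5) and Irf8 2.24-fold (2.17 to 2.31). Zeb2 was the member that was lower, with a ratio of 0.238 (0.207 to 0.274). The draw of the thinning mattered here beyond the counting intervals: over 6 draws the ratio ran from 57.8 to 76.3 for Id2, from 66.2 to 90.4 for Batf3 and from 0.176 to 0.238 for Zeb2, so that the values printed for Id2 and Batf3 are the highest of the 6. Spi1 (ratio 1.11) and Nfil3 (1.01) stayed within 2-fold in each draw, though Nfil3 ran from 0.638 to 1.01. The Nfil3 ratio leans on cells at the edge of the conventional dendritic gate. Nfil3 was at 40.7 and 51.0 CPM in its cells with 3 and 4 markers and at 8.77 with 5, against 16.3 in the monocyte gate.

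The plasmacytoid-like gate was compared with the conventional dendritic gate to set the 2 dendritic branches side by side. Of 7 members with enough UMIs, 1 was higher and 4 were lower, against 4.87% and 6.93% of 7335 genes. Zeb2 was 4.20-fold higher (3.49 to 5.05, and up to 6.03 over the draws). Id2 had a ratio of 0.0206 (0.0124 to 0.0323, draws 0.0125 to 0.0221) and Zbtb46 of 0.112 (0.0225 to 0.337) from 3 UMIs against 85. Batf3 had 0 UMIs against 489, and the upper limit of its ratio was 0.0239. A floor of 3 UMIs over the gate put Batf3 51.6-fold lower, a ratio of 0.0194 (draws 0.0182 to 0.0227). With 1 marker more that floor gave 0.0305. Spi1 had a ratio of 0.475 (0.393 to 0.570), just past the 2-fold line, and it ran from 0.469 to 0.539 over the draws, so that its count as lower depended on the draw. Irf8 was within 2-fold (1.09, 1.03 to 1.15). Nfil3 had a ratio of 1.16 (0.636 to 2.03) from 18 UMIs against 49, and it ran from 1.09 to 2.51 over the draws.

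**Figure D2:**
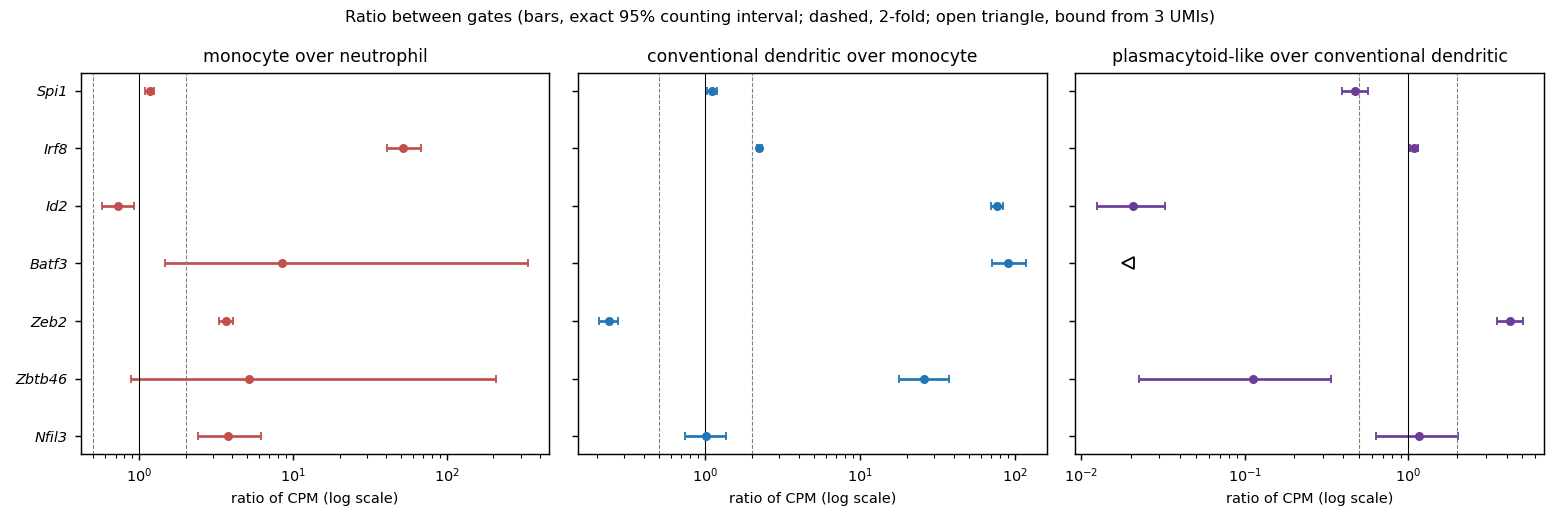
Ratio of CPM between gates (log scale) for 7 genes in the 3 comparisons, with exact 95% counting intervals; dashed lines mark 2-fold either way, and the open triangle is the bound from 3 UMIs for Batf3 in the plasmacytoid-like gate. Irf4 is left out for its low count. Irf8 is furthest from 1 on the left (51.9), Id2 and Batf3 in the middle (76.3 and 90.4), and Zeb2 lies on opposite sides of 1 in the middle (0.238) and right (4.20) panels.

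Detection in single cells was read beside the levels. After thinning to 5000 UMIs, 88.9% of monocyte, 85.9% of conventional dendritic, 87.3% of plasmacytoid-like and 2.94% of neutrophil cells had a UMI of Irf8. The dendritic gates, higher in Irf8 level than the monocyte gate, did not have a larger share. Shares this high leave little room to rise, and what lay behind the difference in level was not tested. In the erythroid gate, which should lack the dendritic factors and whose unthinned median depth was 29785 UMIs, the share was 7.97%. The neutrophil share was up to 8.14% over the draws, and no expression is read from it. The erythroid share was itself not read as a plain background. Of the 124 erythroid cells with Irf8, 27 were doublet calls, against 64 of the other 1431. The monocyte list was at 1057.5 against 49.9 CPM in them and Spi1 at 125.6 against 14.3 CPM. Where the erythroid Irf8 UMIs came from was not tested. Id2 was found in 80.3% of conventional dendritic cells and in 4.96%, 9.52% and 7.98% of monocyte, plasmacytoid-like and neutrophil cells, against 1.80% of erythroid cells. The plasmacytoid-like Id2 share is the highest of the 6 draws, which ran from 4.84% to 9.52%. The neutrophil Id2 share ran from 4.4% to 9.4%. Batf3 was found in 54.7% of conventional dendritic, 1.02% of monocyte and 0.420% of neutrophil cells, in 0 of 63 plasmacytoid-like cells, where the upper limit for cells with a UMI at this depth, not for cells expressing the gene, is 5.69%, and in 0.257% of erythroid cells.

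Zeb2 was found in 72.4% of monocyte, 15.8% of conventional dendritic, 79.4% of plasmacytoid-like and 28.6% of neutrophil cells. The plasmacytoid-like value is the highest of the 6 draws, which ran from 61.7% to 79.4%, and the neutrophil share ran from 21.3% to 29.6%. The erythroid share was 48.4%, at 132.6 CPM, so that gate was no negative reference for Zeb2. No expression is read from the conventional dendritic and neutrophil shares, which lie below it, and whether the erythroid UMIs came from those cells was not tested. Spi1 was found in 73.5%, 74.8%, 52.4% and 65.1% of the 4 gates in the same order, against 11.6% of erythroid cells. Nfil3 was found in 7.44%, 4.70%, 6.35% and 3.36%, against 0.386% of erythroid cells. Over the draws its share ran from 2.5% to 4.89% in the conventional dendritic gate and from 4.84% to 11.7% in the plasmacytoid-like gate. Zbtb46 was found in 14.1% of conventional dendritic, 0.755% of monocyte, 4.76% of plasmacytoid-like and none of the neutrophil cells, and the erythroid share of 5.34% exceeded all but the first of these. The plasmacytoid-like Zbtb46 share is the highest of the 6 draws, which ran from 0% to 4.76%.

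Without thinning, where depth differs between gates, the shares in the monocyte, conventional dendritic, plasmacytoid-like and neutrophil gates were 98.7%, 88.9%, 95.2% and 7.98% for Irf8. They were 12.4%, 84.2%, 20.6% and 25.6% for Id2. For Zeb2 they were 96.7%, 33.8%, 90.5% and 68.1%. The conventional dendritic gate thus had the highest Id2 share at either depth.

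The members were then read together in each cell. Of 8 genes, the median thinned cell had 4 in the conventional dendritic gate, 3 in the monocyte and plasmacytoid-like gates and 1 in the neutrophil gate. At least 3 were found in 80.3%, 53.4%, 52.4% and 4.62% of cells of these gates. Irf8 with Id2 and without Zeb2 was the state of 165 of 234 conventional dendritic cells (70.5%, 64.2 to 76.3), against 1.94% of monocyte and 3.17% of plasmacytoid-like cells. Irf8 with Zeb2 and without Id2 was the state of 1156 of 1854 monocyte cells (62.4%, 60.1 to 64.6) and of 44 of 63 plasmacytoid-like cells (69.8%, 57.0 to 80.8), against 2.99% of conventional dendritic cells. The plasmacytoid-like share ran from 48.3% to 69.8% over the draws. All 3 genes together were found in 2.86% of monocyte, 7.69% of conventional dendritic and 4.76% of plasmacytoid-like cells, and none of the 3 in 64.3% of neutrophil cells.

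**Figure D3:**
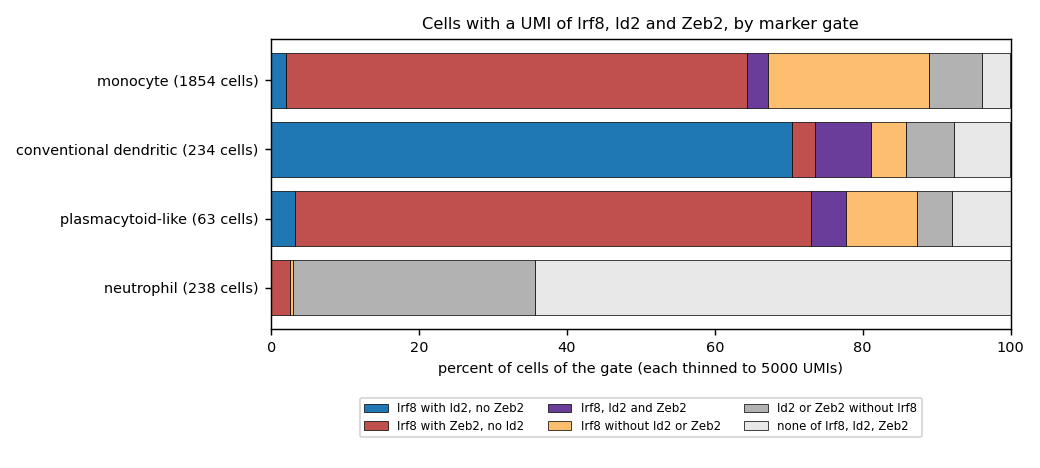
Percent of cells of each gate (each thinned to 5000 UMIs) by which of Irf8, Id2 and Zeb2 had a UMI, from 1854 monocyte, 234 conventional dendritic, 63 plasmacytoid-like and 238 neutrophil cells. The blue part, Irf8 with Id2 and no Zeb2, takes 70.5% of the conventional dendritic bar, and the red part, Irf8 with Zeb2 and no Id2, takes 62.4% and 69.8% of the monocyte and plasmacytoid-like bars.

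Within 1 gate, pairs were set beside the product of their single shares, for all 28 pairs. In the monocyte gate the pairs of widely detected genes lay near that product, with Spi1 and Irf8 in 1230 cells against 1211.4 and Irf8 and Zeb2 in 1209 against 1193.6. Some pairs with a rarely detected gene did not. Id2 with Batf3 was found in 12 monocyte cells against 0.943 and Batf3 with Zbtb46 in 3 against 0.143. Batf3 with Zeb2 was found in 6 against 13.8. Others lay near the product, such as Batf3 with Nfil3 in 1 against 1.41. In the conventional dendritic gate, Id2 with Batf3 was found in 125 cells against 102.8, Irf8 with Batf3 in 126 against 109.9 and Id2 with Zbtb46 in 32 against 26.5, while Zeb2 was found less often than its product with Id2 (20 against 29.7) and with Batf3 (10 against 20.2). Zeb2 with Zbtb46 was found in 0 cells against 5.22. At 10000 UMIs per cell, over the 156 conventional dendritic cells that deep, the observed count over the product was 1.24 for Id2 with Batf3, 0.71 for Id2 with Zeb2, 0.58 for Batf3 with Zeb2 and 0.57 for Zeb2 with Zbtb46. Counts this sparse are given as a description only.

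The 37 conventional dendritic cells with a thinned UMI of Zeb2 differed from the other 197. They had 447.7 CPM of Id2 against 1108.1, 71.6 against 187.3 of Batf3 and 872.0 against 1757.1 of Irf8. The conventional dendritic list was also lower in them (6545.4 against 21007.1 CPM), the summed monocyte list was lower too (1188.3 against 1732.7 CPM), although F13a1 of that list was higher (108.2 against 14.3 CPM). The early granule list was at 3303.5 against 1130.8 CPM, and 8 of the 37 were doublet calls against 8 of the 197. The part of doublets and of gate purity in this difference was not tested.

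A converse group lay in the monocyte gate, where 19 cells had a thinned UMI of Batf3. They had 607.8 CPM of Id2 against 9.04 in the other 1835, 1769.2 against 699.3 of Irf8 and 131.6 against 292.3 of Zeb2. Zbtb46 was at 38.7 against 0.877 CPM, from 10 and 36 UMIs. Summed conventional dendritic markers were at 3387.4 CPM against 84.3, the early granule list was at 2322.8 against 16145.9, and the summed monocyte list was at 2830.0 against 3150.5, with F13a1 of that list at 182.0 against 591.4. Of the 19 cells, 2 were doublet calls. These 19 cells (1.02% of the gate) held 157 of the 528 Id2 UMIs of the monocyte gate, and the other 1835 held 371. The level of Id2 was 12.8 CPM over the whole gate and 9.04 without the 19 cells. The ratio to the conventional dendritic gate therefore depends in part on these few cells.

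The level of the members also moved with the number of gate markers in a cell. In the monocyte gate, Irf8 went from 468.8 CPM in the 338 cells with 3 markers to 732.2 with 5 and 950.8 with 7, Zeb2 from 224.9 to 348.7 and Spi1 from 229.3 to 340.6 over the same steps. In the conventional dendritic gate, the 24 cells with 3 markers had 27.97 CPM of Id2, 2.5 of Batf3 and 195.8 of Irf8, while the 43 cells with 5 markers had 1021.1, 205.3 and 1728.1 CPM. Above 5 markers these 3 levels changed little beside that step. Nfil3 went the other way, at 40.7 and 51.0 CPM with 3 and 4 markers and 8.8 CPM with 5. The cells at the edge of the conventional dendritic gate therefore differed from the rest of it in these factors. Of the plasmacytoid-like gate, 25 of 63 cells lay at 3 markers, and of the neutrophil gate 154 of 238.

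**Figure D4:**
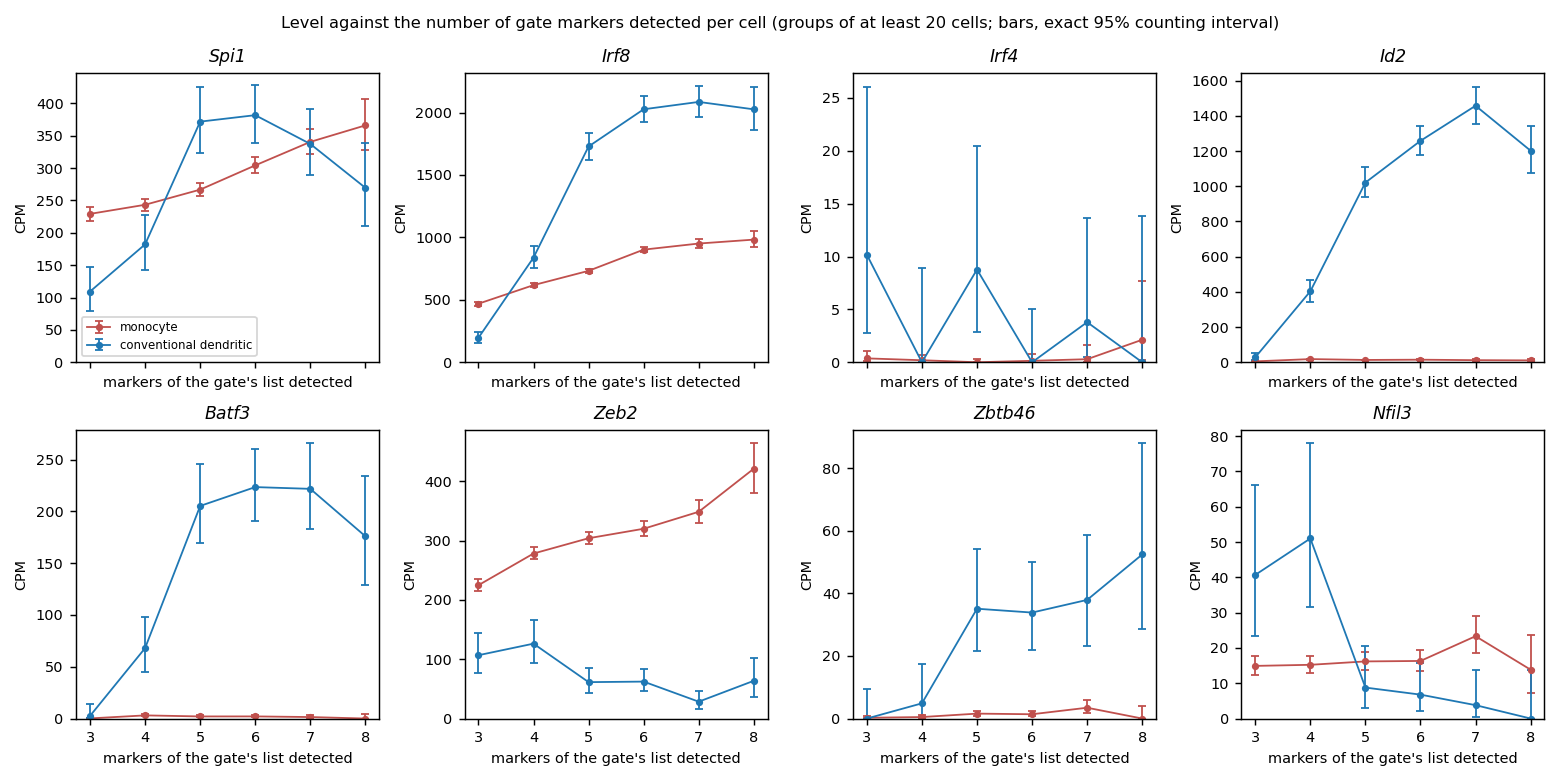
Level (CPM) of each gene against the number of markers of the gate's own list detected in the cell, for the monocyte and conventional dendritic gates, in groups of at least 20 cells with exact 95% counting intervals. Irf8, Zeb2 and Spi1 climb across the monocyte gate (Irf8 from 468.8 to 950.8 CPM between 3 and 7 markers), while Id2 in the conventional dendritic gate steps from 27.97 CPM at 3 markers to 1021.1 at 5.

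The conventional dendritic gate was divided by markers of its types. The 93 cells with Xcr1 or Clec9a and neither Cd209a nor Clec10a (cDC1 markers) had 1388.9 CPM of Id2, 2122.5 of Irf8, 226.7 of Batf3 and 34.1 of Zeb2. The 16 cells with Cd209a or Clec10a and neither Xcr1 nor Clec9a (cDC2 markers) had 614.2, 1156.0, 132.5 and 90.3 CPM. Doublet calls were 3 of these 16 cells and 3 of the 93, and the Zeb2 level of the 16 cells rests on 15 UMIs. The ratios were 2.26 (1.85 to 2.79) for Id2, 1.84 (1.58 to 2.14) for Irf8, 1.71 (1.11 to 2.78) for Batf3 and 0.378 (0.202 to 0.741) for Zeb2, so that Id2 and Zeb2 passed 2-fold, where 6.77% of 3442 genes were higher and 3.08% lower. Spi1 was lower in the cDC1-marked cells (ratio 0.761, 0.588 to 0.996). Irf4 had 6 and 1 UMIs, and no order was read from them. Another 121 cells of the gate had none of these 4 markers, and 4 cells had both kinds.

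Monocyte cells with Fn1 or Tgfbi, genes of later monocytes, were close to the others, with none of the members past 2-fold among those with 50 or more UMIs, where 1.43% of 10891 genes were higher and 1.4% lower. Irf8 was at 806.6 CPM in the 303 cells with either gene and at 687.0 CPM in the 1551 without, a ratio of 1.17 (1.14 to 1.21), and Zeb2 and Spi1 had ratios of 1.16 and 1.15. In the neutrophil gate, cells above the median of S100a8 had more Id2 (26.7 against 10.04 CPM, ratio 2.65, 1.63 to 4.43) and less Irf8 (8.88 against 17.7 CPM, ratio 0.503, 0.277 to 0.879) and Zeb2 (58.9 against 97.2 CPM, ratio 0.606, 0.485 to 0.755). Id2 was past 2-fold there, as were 0.362% of 6350 genes in that direction, and no member with 50 or more UMIs was lower by 2-fold, as 0.756% were.

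The 60 genes listed beside the members put these values among their paralogues and partners. These lists were chosen with earlier results of these data known. Of 12 Ets and interferon regulatory factor paralogues, 3 were higher and 1 was lower in the monocyte gate than in the neutrophil gate: Irf5, of inflammatory macrophages, was at 27.3 against 0.864 CPM and Ets1, a lymphoid Ets factor, at 0.799 against 15.1 CPM. In the conventional dendritic against the monocyte gate 4 were higher and none lower, with Ets1 at 12.8 CPM and Irf7, of the interferon response, at 29.5 against 1.86 CPM. The plasmacytoid-like gate had 2 higher and 2 lower than the conventional dendritic gate, with Irf5 at 14.8 against 110.7 CPM.

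Among 5 Id and E protein genes, Tcf4 was the member of the list that stood out in the plasmacytoid-like gate, at 538.2 CPM against 116.0 in the conventional dendritic, 78.3 in the monocyte and 18.8 in the neutrophil gate, while Id1, an Id2 paralogue, was at 13.1 CPM in the monocyte gate and 1.34 CPM (4 UMIs) in the conventional dendritic gate. Of 12 basic leucine zipper genes, 4 were higher and 1 lower in the monocyte than in the neutrophil gate. The latter was Cebpe, of the neutrophil granule programme, at 16.2 against 258.8 CPM. In the conventional dendritic gate 4 were higher than in the monocyte gate, Junb, Jund, Fos and Dbp, and 4 were lower, all of them C/EBP genes of granulocyte and monocyte development: Cebpa, Cebpb, Cebpd and Cebpe, with Cebpb at 22.5 against 154.9 CPM.

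The 13 zinc finger and other fate factors gave 7 higher and 1 lower in the monocyte against the neutrophil gate, led by Klf4, a monocyte factor, at 120.9 against 0.864 CPM (4 UMIs), with Gfi1, which represses the monocyte programme in neutrophils, at 12.5 against 78.4 CPM. In the conventional dendritic against the monocyte gate 6 were higher and 1 lower, with Bcl6 at 35.6 against 3.32 CPM, Egr1 at 104.3 against 10.3 and Zeb1, the paralogue of Zeb2, at 60.0 against 8.18 CPM. Zeb1 and Zeb2 therefore lay on opposite sides of 1 in this comparison (ratios 7.34 and 0.238). In the plasmacytoid-like against the conventional dendritic gate Runx2, Bcl11a, Myb and Runx1 were higher, with Runx2 at 383.5 against 74.5 CPM, and Zeb1, Klf4 and Bcl6 were lower.

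Of 4 cDC1 programme genes, 3 had enough UMIs and all 3 were higher in the conventional dendritic than in the monocyte gate: Tlr3 at 77.8 CPM against 2 UMIs, Cadm1 at 48.0 CPM against 2 UMIs, and Wdfy4, needed for cross-presentation, at 273.4 against 30.3 CPM. The same 3 were lower in the plasmacytoid-like gate, where Tlr3 had no UMI. Among 7 phagocyte genes, 2 were higher and 2 lower in the conventional dendritic than in the monocyte gate, with the protease inhibitor gene Cst3 at 10621.5 against 1318.3 CPM and Fcgr3, an Fc receptor, at 6.71 against 90.5 CPM. Of 7 cytokine receptor genes, Kit, used in the sort, was higher in the conventional dendritic than in the monocyte gate (104.0 against 42.8 CPM) and Csf3r, the G-CSF receptor, was lower (10.7 against 22.8 CPM).

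The median ratio of each list was read beside that of all genes on the log2 scale (0.35, 0.08 and 0.07 in the monocyte against neutrophil, conventional dendritic against monocyte and plasmacytoid-like against conventional dendritic comparisons). The Ets and interferon factor list had medians of 0.54, 0.92 and 0.09, the Id and E protein list 0.94, 0.32 and 0.91, and the zinc finger list 1.13, 1.08 and 0.98. The basic leucine zipper list had medians of 0.60, 0.25 and -0.17, and none of its 7 genes with enough UMIs passed 2-fold in the last comparison. Medians were 1.06, 0.17 and -2.83 for the phagocyte list and -0.06, -0.04 and -1.53 for the cytokine receptor list. The 3 cDC1 genes had medians of 9.95 and -3.18 in the last 2 comparisons, while 1 of the list, Wdfy4, could be compared in the first and lay within 2-fold. Of the phagocyte genes 4 were higher and 2 lower in the monocyte than in the neutrophil gate, and 1 higher and 3 lower in the plasmacytoid-like than in the conventional dendritic gate, and of the cytokine receptor genes 3 were higher and 1 lower, and none higher and 3 lower. Of the Id and E protein genes 2, 0 and 1 were higher and 0, 1 and 0 lower in the 3 comparisons.

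Across the 11 gates of at least 20 cells, the genes with the pattern most like each member were found among 11471 genes by Pearson correlation of log2(CPM + 10), which is given as a description over gates of unequal depth from 1 library. For Irf8 they were Pkib, Disc1 and Ctss (r = 0.987, 0.978 and 0.973), for Batf3 Ifi205, Xcr1 and Plbd1 (0.9996, 0.998 and 0.997) and for Id2 Ckb, Xcr1 and Amz1 (0.964, 0.961 and 0.960). Ctss and Xcr1 are gate markers. Batf3 was at 164.0 CPM in the conventional dendritic gate and at 1.82 CPM or less in the other gates of this size. That 1 gate therefore largely set the correlations of Batf3, the one with Id2 included. For Spi1 they were Napsa, Cers6 and Dhrs7 (0.967, 0.954 and 0.932), for Zbtb46 Slc46a3, Gpr155 and Cd36 (0.970, 0.962 and 0.958) and for Irf4 Mycl, Cd209a and Rnd3 (0.996, 0.986 and 0.976), of which Cd209a is a gate marker. Of the 49 UMIs of Irf4, the 24 in unplaced cells did not enter its pattern. Of the rest, 11 came from 4 conventional dendritic cells. The nearest genes to Zeb2 (Tmem17, 0.869) and Nfil3 (Parvg, 0.898) were less alike. Among the members, Id2 and Batf3 had the closest pair of patterns (r = 0.957) and Id2 and Zeb2 the most opposed (r = -0.55).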

How the data were processed

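Lineage- cKit+ bone marrow cells of 1 library (Chromium 3' v3.1 per the study's methods; the sample's labels describe bulk RNA extraction) were counted by the authors with Cell Ranger 6.0.2 on mm10, per the submitters' processing notes, and deposited as whole-number UMI counts for 8817 barcodes. The counts used here are as deposited, with 167452386 UMIs in all.

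Cells with 1000 to 50000 UMIs, 1000 to 6500 genes and under 7% mitochondrial UMIs were kept, as in the study. Each was thinned to 5000 UMIs (99 shallower cells were left out of gates), and 3 detected markers of a list, more than of any other lineage list, opened a gate. The early granule and multipotent lists were applied to cells that no lineage list took. No gene described here was a marker. The number 3 was set from marker counts alone. The genes and the 7 lists of 60 related genes were chosen with earlier results of these data known. The random draw was changed to 1 per barcode, so that unchanged cells keep their draw between settings, after the genes' levels had been seen. Ranges over 6 draws, the earlier one included, are therefore given beside some of the values that moved.

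Levels are UMIs summed over a gate per 1000000. Ratios were called at 2-fold with at least 50 UMIs in both gates together, and members were named in every comparison. A fold against 0 used 3 UMIs. Intervals are exact (Poisson for levels, Clopper-Pearson for shares, conditional binomial for ratios) at 95%. Doublets were called with Scrublet (scanpy 1.11.5, expected share 6%) and kept, 265 cells or 3.47%. The scripts were tested on simulated counts. Python 3.11.15, numpy 2.4.6, scipy 1.17.1, pandas 2.3.3 and matplotlib 3.10.9 were used. Alternatives were other cell filters, marker numbers, depths, seeds, scalings and minimums, and removal of doublet calls. Gene positions are from GENCODE M21 and promoter windows from RefSeq.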

Additional observations from a re-analysis of the deposited data

Results flagged for a closer look

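Cells that had as many monocyte as conventional dendritic markers entered no gate and no comparison. There were 36 of them, with a median of 11523 UMIs, and 5 were doublet calls. Irf8 was at 1778.5 CPM (1660.8 to 1902.5), Id2 at 825.2 CPM (745.6 to 911.0) and Batf3 at 161.7 CPM (127.6 to 202.1) in these cells, each above its level in the monocyte gate (706.0, 12.8 and 1.82 CPM), which is why they are given here. Spi1 was at 432.6 CPM, above its level in either gate. Zeb2 was at 128.1 CPM, between the conventional dendritic (69.4 CPM) and the monocyte gate (291.3 CPM). The part of doublets was not tested.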

How the results depend on the processing

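The ratios of Irf8, Zeb2 and Nfil3 between the monocyte and neutrophil gates, of Irf8, Id2, Batf3, Zbtb46 and Zeb2 between the conventional dendritic and monocyte gates, and of Id2, Batf3, Zbtb46 and Zeb2 between the dendritic gates stayed on the same side of 2-fold over the 13 alternatives. Spi1 between the dendritic gates ran from 0.447 to 0.557. With 1 marker more, the Zbtb46 ratio of monocyte to neutrophil gate was -0.52 on the log2 scale. The neutrophil gate then had none, so that this is a bound from 3 UMIs. Genes higher and lower in the monocyte than in the neutrophil gate (2070 and 336) became 1334 and 586 with the median of ratios, and 6339 and 1239 without a minimum of UMIs. Without the minimum, which lets in genes of a few UMIs, the conventional dendritic gate had 3599 genes higher and 3934 lower than the monocyte gate (1360 and 685 with it; the higher share was 66.5% and became 47.8%), and the plasmacytoid-like gate 2146 and 3209 against the conventional dendritic (357 and 508). Members higher in the plasmacytoid-like gate became 2, with Nfil3, under the third and the fifth seed. Irf8 with Id2 and no Zeb2 took 78.1% of conventional dendritic cells with 1 marker more, 58.3% at 10000 UMIs and 62.0% unthinned. Irf8 with Zeb2 and no Id2 took 59.7% and 65.5% of monocyte cells with 1 marker fewer and more, 81.2% at 10000 UMIs, 84.6% unthinned and 59.8% with gates set at 10000 UMIs. Of plasmacytoid-like cells it took 53.1% with 1 marker fewer, and 48.3% and 55.7% under the third and the fifth seed. The third, the fourth and the fifth seed and the earlier draw were chosen after seeing the data. No paired analysis was possible because there is 1 library, and for the same reason no replicate could be left out. Depth limits Irf4, Batf3 and Zbtb46 outside the conventional dendritic gate, and any value in the 63 plasmacytoid-like cells.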

Other observations

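Some members were high outside the myeloid gates. Zeb2 was at 441.0 CPM in the 578 cells of the megakaryocyte gate, above the monocyte and plasmacytoid-like gates (both 291.3 CPM), and at 247.4 CPM in the 22 cells of the B lineage gate. Id2, which is needed by innate lymphoid cells, was at 1401.5 CPM in the 10 cells of the T or innate lymphoid gate, from 135 UMIs, and Batf3 had 5 UMIs there (51.9 CPM). Zbtb46 had 579 of its 745 UMIs in the erythroid gate (13.2 CPM, 27.7% of cells unthinned and 5.34% thinned), against 0.603 CPM in the megakaryocyte gate.

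In the monocyte gate, 92 cells had a thinned UMI of Id2. They had 1243.7 CPM of Irf8 against 682.4 in the other 1762 cells, 27.0 against 0.71 of Batf3 and 670.8 against 80.1 of the conventional dendritic list, with 1 doublet call among them.

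In the neutrophil gate, 7 cells had a thinned UMI of Irf8, 2 of them doublet calls. Zeb2 was at 202.5 CPM in them against 75.01 in the other 231, the neutrophil list at 1632.1 against 4991.9 and Cebpe at 128.9 against 263.5 CPM.

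Among barcodes the study's filter removed, 4 met the conventional dendritic gate and had 470.1 CPM of Id2, and 18 met the monocyte gate and had 650.2 CPM of Irf8.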
